A study of Arabidopsis thaliana with 6 samples.

Results

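The PLATZ family of Arabidopsis thaliana was described here through 10 genes, chosen by gene ID from a fixed list that holds ORE15 (AT1G31040), PLATZ1 (AT1G21000), PLATZ2 (AT1G76590) and 7 further genes annotated as PLATZ transcription factors. Of these 10 genes, 8 were among the 18734 genes of the count table, and the expression of AT1G43000 and AT3G60670 was not analysed here. RNA-seq was done on 0.5 cm tips of primary roots 5 days after planting, with 3 libraries of ore15-2, a line with a T-DNA inserted in ORE15 on the Columbia-0 background, and 3 libraries of wild-type Columbia-0 (Col). Seedlings of both genotypes grew on half-strength MS agar with 0.5% sucrose at 22 °C under continuous light. The labels name ore15-2 as a single insertion line and count 2 seedlings for each genotype, fewer than its 3 libraries. Separate plates or harvests are not stated for the libraries, so the p-values below reflect spread among these samples that may be technical in part.

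PLATZ proteins (plant AT-rich sequence and zinc-binding proteins) are transcription factors found only in plants, with a conserved zinc-binding region, and the founding member, from pea, binds A/T-rich DNA and represses transcription. In Arabidopsis, ORE15 is known from an activation-tagged line with large leaves and delayed leaf senescence, and it acts in leaf growth together with the GRF and GIF growth regulators. PLATZ1 and PLATZ2 are known from work on desiccation tolerance, and PLATZ2 also as a repressor of the calcium sensor genes CBL4 and CBL10 in the salt response. Comparing ore15-2 with Col asks how the other family members stand in root tips of a line with an insertion in ORE15.

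The coding sequences of PLATZ1 and PLATZ2 were the most alike of the family, and of the 7 members that passed the filter on low counts these genes also fell most in ore15-2. Over all 45 pairs of the 10 listed genes, the share of identical aligned coding bases ran from 56.0% to 82.7%, with a median of 62.9%. The highest value was that of PLATZ1 with PLATZ2. AT4G17900 with AT5G46710 had 75.9% and AT1G32700 with AT4G17900 had 73.3%, and none of these genes was called in the main edgeR fit. AT2G01818, which was called lower in ore15-2, had 61.4% with PLATZ1 and 58.2% with PLATZ2. A link between likeness and fall was not tested. ORE15 had 60.4% to 65.1% with every other gene, the highest with RITF1 (AT2G12646), a PLATZ gene of the root meristem that is outside the list. A stretch of 103 aligned coding bases shows how close PLATZ1 and PLATZ2 are and how reads can still tell them apart. It runs from coding base 502 to 604 in PLATZ1 and from 505 to 607 in PLATZ2 (chromosome 1, plus strand, TAIR10.1, RefSeq), and capitals mark the 16 positions at which they differ.
PLATZ1: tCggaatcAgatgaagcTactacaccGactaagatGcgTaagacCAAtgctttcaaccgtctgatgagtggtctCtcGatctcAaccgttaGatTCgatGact
PLATZ2: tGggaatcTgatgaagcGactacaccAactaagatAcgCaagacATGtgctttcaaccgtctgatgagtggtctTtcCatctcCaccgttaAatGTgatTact
The longest run that the coding sequences of PLATZ1 and PLATZ2 share without a difference is 27 bases, tgctttcaaccgtctgatgagtggtct. The read length is not given in the sources used here. The next longest run among all pairs, 24 bases, was that of AT4G17900 and AT5G46710. Reads longer than 27 bases within these coding sequences thus hold at least 1 base that tells the genes apart. Exon parts outside the coding sequence were not compared. How the authors' counting treated such reads is not given either.

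**Figure D1:**
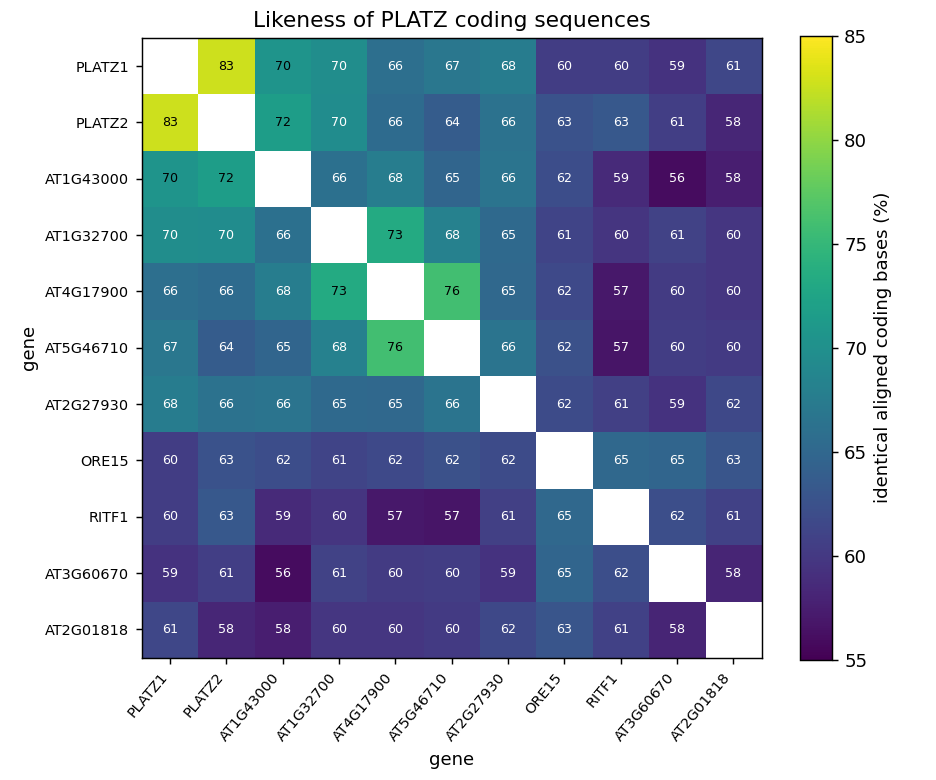
Share of identical aligned coding bases (colour and printed whole percent) for each pair of the 10 listed PLATZ genes and RITF1, from TAIR10.1 RefSeq coding sequences, with genes on both axes. PLATZ1 and PLATZ2 form the brightest cell at 82.7%, and the row of ORE15 stays between 60.4% and 65.1%.

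The bases just before the annotated gene starts are shown for ORE15 and for the 3 members that fell in ore15-2, since members that move together invite a look at shared motifs. Each is a window of 250 bases on the gene's own strand (TAIR10.1, RefSeq annotation), and capitals mark matches to the motifs named after them.
ORE15, chr1:11072565-11072814, minus strand: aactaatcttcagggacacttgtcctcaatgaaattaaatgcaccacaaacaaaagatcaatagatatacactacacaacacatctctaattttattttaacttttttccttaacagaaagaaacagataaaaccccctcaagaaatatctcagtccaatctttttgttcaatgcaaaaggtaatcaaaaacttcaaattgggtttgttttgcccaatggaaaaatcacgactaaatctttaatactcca
PLATZ1, chr1:7337355-7337604, plus strand: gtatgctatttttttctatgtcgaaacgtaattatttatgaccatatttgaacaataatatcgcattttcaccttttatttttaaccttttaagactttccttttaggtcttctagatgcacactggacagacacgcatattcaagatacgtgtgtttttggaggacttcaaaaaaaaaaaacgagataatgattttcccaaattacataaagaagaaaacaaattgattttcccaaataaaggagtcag
PLATZ2, chr1:28740290-28740539, plus strand: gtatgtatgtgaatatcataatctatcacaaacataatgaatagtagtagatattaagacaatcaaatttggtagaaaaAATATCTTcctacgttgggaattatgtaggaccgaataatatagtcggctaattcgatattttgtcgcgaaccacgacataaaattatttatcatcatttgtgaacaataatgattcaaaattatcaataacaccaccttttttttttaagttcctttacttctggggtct
AT2G01818, chr2:355595-355844, minus strand: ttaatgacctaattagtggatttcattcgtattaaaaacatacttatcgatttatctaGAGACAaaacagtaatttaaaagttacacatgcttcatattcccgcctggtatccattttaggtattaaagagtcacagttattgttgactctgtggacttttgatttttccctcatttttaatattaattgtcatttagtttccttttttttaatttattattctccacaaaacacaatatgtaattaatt
The motifs searched on both strands were TGTCTC and TGTCGG, the auxin response elements, AAGATNTT, a motif bound by type-B cytokinin response regulators, and CACGTG, the G-box. PLATZ2 held AAGATNTT at 171 bases before its start, on the other strand, and AT2G01818 held TGTCTC at 192 bases, also on the other strand. The windows of ORE15 and PLATZ1 held none of the 4 motifs. Of all 10 listed genes, 3 had AAGATNTT, against 12.0% of 27443 windows of protein-coding genes, 1 had TGTCTC, against 10.9%, and 0 had TGTCGG or CACGTG, against 4.2% and 6.5%. The A and T content of the 4 windows printed ran from 68.8% in ORE15 to 73.2% in AT2G01818, beside a median of 68.8% over all windows. No motif was common to the windows of the 3 members that fell.

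The libraries of ore15-2 were not alike. Total counts were 6396903 to 16503138 in ore15-2 and 17433440 to 20333352 in Col. The mitochondrial share of counts was 2.91%, 3.20% and 0.328% in ore15-2 replicates 1, 2 and 3, and 0.183% to 0.250% in Col. Replicates 1 and 2 of ore15-2 were thus shallow and rich in mitochondrial RNA beside replicate 3, so that member values from replicate 3 alone are also given below. Every pair of libraries differed by more than sampling noise (chi-square per gene of at least 2.14). By this measure, which rises with depth, ore15-2 replicate 3 was nearer to the Col libraries (20.1 to 23) than to ore15-2 replicates 1 and 2 (29.3 and 49.3). Replicates 1 and 2 of ore15-2 had 7.26 with each other. The ore15-2 means below thus join unlike libraries. The labels call the cells root meristem stem cells. WOX5, which marks the quiescent centre, averaged 1.43 ± 0.217 CPM in ore15-2 and 2.22 ± 0.194 CPM in Col, while CASP1 of the maturing endodermis averaged 252.3 ± 52.4 CPM in ore15-2 and 193.3 ± 20.8 CPM in Col (SD, n = 3 each; CPM are counts scaled to a common library size after TMM normalisation). The tips therefore held differentiated cells too. In such bulk tissue, fewer cells of a type and less RNA per cell cannot be told apart.

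ORE15, the gene with the insertion, was close to the limit of detection in root tips. Its counts were 0, 0 and 1 in ore15-2 replicates 1 to 3, and 13, 12 and 8 in Col replicates 1 to 3. Every ore15-2 value was below every Col value, with means of 0.0191 ± 0.0330 CPM in ore15-2 and 0.534 ± 0.146 CPM in Col (SD, n = 3 each). Pooled over libraries, ore15-2 had 6.57% of the Col level (exact 95% interval 0.162% to 39.2%, counting error only). The zeros of the shallow libraries carry little weight. At the pooled Col level, 3.28 and 2.67 counts would have been seen in ore15-2 replicates 1 and 2, and 9.27 in replicate 3. In replicates 1 and 2, a count of 0 allows up to 0.485 and 0.596 CPM, near or above the Col mean of 0.534 CPM. Replicate 3 alone, with its 1 count, stood at 10.8% of Col (0.265% to 64.4%). ORE15 did not pass the filter on low counts, and with no such filter edgeR's quasi-likelihood test gave a log2 fold change of -3.65 (SE 0.75, adjusted p = 0.0166 over all genes). The call was lost without Col replicate 1 (edgeR adjusted p = 0.051), Col replicate 2 (0.0579) or ore15-2 replicate 1 (0.0653). This fitted change depends on the small constant added to counts of 0. ORE15 lies on the minus strand of chromosome 1, from 11069510 to 11072564 (TAIR10.1), in 4 coding exons.

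Per coding length, the members spanned a wide range of levels, with AT1G32700 and AT4G17900 at the top and ORE15 at the bottom. In RPKM (reads scaled to gene length and library size, the authors' values), AT1G32700 averaged 106.3 ± 53.7 in ore15-2 and 195.8 ± 9.66 in Col. AT4G17900 averaged 121.3 ± 43.7 RPKM in ore15-2 and 187.1 ± 1.91 RPKM in Col. These 2 genes overlapped in ore15-2 and were only just separate in Col, at 185.9 to 189.3 RPKM for AT4G17900 and 189.8 to 207.0 RPKM for AT1G32700. Next came PLATZ1, with 42.9 ± 15.2 RPKM in ore15-2 and 91.4 ± 3.66 RPKM in Col, and PLATZ2, with 11.9 ± 4.31 RPKM in ore15-2 and 31.7 ± 1.36 RPKM in Col. In Col, PLATZ1 was thus above 85.3% of the genes in the RPKM table and PLATZ2 above 64.8%. AT2G01818 averaged 10.5 ± 2.52 RPKM in ore15-2 and 19.1 ± 0.861 RPKM in Col, and AT5G46710 10.3 ± 5.18 RPKM in ore15-2 and 14.8 ± 1.86 RPKM in Col. AT2G27930 averaged 6.82 ± 1.73 RPKM in ore15-2 and 7.77 ± 1.18 RPKM in Col, and ORE15 0.0278 ± 0.0482 RPKM in ore15-2 and 0.802 ± 0.227 RPKM in Col (SD, n = 3 in every case). In Col, neighbours in this order did not overlap. In ore15-2 the order of the top 2 means was turned round. PLATZ1 was apart from AT4G17900 and PLATZ2 there but just overlapped AT1G32700 (up to 59.33 against down to 59.10 RPKM). AT2G27930 was apart from ORE15, and the other neighbours in this order overlapped. Summed over the 8 genes, the family had 286.7, 197.2 and 446.5 RPKM in ore15-2 replicates 1 to 3, and 558.2, 544.9 and 542.1 RPKM in Col replicates 1 to 3. These sums use the authors' scaling, in which the median gene lay 0.21 lower in ore15-2 on the log2(RPKM + 1) scale.

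**Figure D2:**
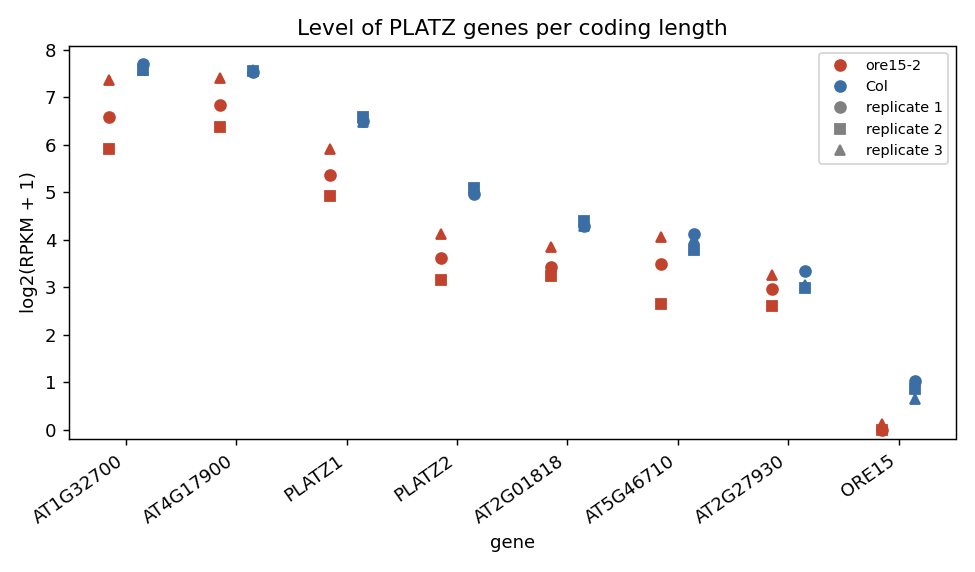
Level of each measured PLATZ gene on the log2(RPKM + 1) axis, by library (shapes for replicates, colours for ore15-2 and Col), in the order of the Col means. AT1G32700 and AT4G17900 stand highest, and ORE15, with a Col mean of 0.802 RPKM, lies far below the other 7 genes.

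Of the 7 members that passed the filter on low counts, 3 fell in ore15-2 and 0 rose by edgeR's quasi-likelihood test at an adjusted p under 0.05. The 3 were PLATZ2, PLATZ1 and AT2G01818. Over all genes tested, 9.9% were called, 3.43% as lower and 6.47% as higher, a split of 643 to 1211 that was 641 to 469 in limma on log2(RPKM + 1). At an unadjusted p under 0.05, 5 members were lower and 0 higher, beside 10.8% and 16.1% of all tested genes. The median log2 fold change of the 7 members was -0.63, beside a median of 0.00 for all tested genes. The values of 5 of the 7 members, namely these 3 with AT1G32700 and AT4G17900, were lower in every ore15-2 library than in every Col library, as were those of 16.3% of all tested genes. By an exact permutation test of a single gene, 3 libraries against 3 cannot give a p below 0.10, and each of these 5 genes had p = 0.10 (two-sided).

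PLATZ2, the salt-response repressor, fell most of the 7 tested members. It had 8.72, 7.16 and 11.4 CPM in ore15-2 replicates 1 to 3, against 20.01, 22.3 and 21.6 CPM in Col replicates 1 to 3. All 3 ore15-2 values lay well below the lowest Col value, and replicate 3 was the highest of them. The fitted level in ore15-2 came to 44.3% of Col (log2 fold change -1.18, SE 0.17, edgeR adjusted p = 0.00291), the change with place 160 from the lowest among 18726 genes. From ore15-2 replicate 3 alone against Col the change was -0.89 (edgeR adjusted p = 0.000289), where the lone library is assumed to vary like Col.

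PLATZ1, its closest relative, fell as well. It had 31.2, 26.6 and 41.2 CPM in ore15-2 replicates 1 to 3, against 59.9, 64.9 and 60.1 CPM in Col replicates 1 to 3. Again the groups were far apart, and again replicate 3 was the highest of the ore15-2 libraries. The fitted ore15-2 level came to 54.5% of Col (log2 fold change -0.88, SE 0.15, edgeR adjusted p = 0.00629), and the change was -0.57 from ore15-2 replicate 3 alone (edgeR adjusted p = 0.000452). PLATZ1 and PLATZ2 passed the threshold in all 19 alternatives tried, with changes between -1.15 and -0.57 for PLATZ1 and between -1.47 and -0.89 for PLATZ2. PLATZ1 came close to the threshold without ore15-2 replicate 1 (edgeR adjusted p = 0.0476) and without Col replicate 2 (0.0383). The highest value of PLATZ2 was 0.0246, without Col replicate 2.

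AT2G01818 fell less, and its call was less firm. It had 6.78, 6.96 and 8.35 CPM in ore15-2 replicates 1 to 3, against 11.2, 12.3 and 11.3 CPM in Col replicates 1 to 3. The groups did not overlap, and the spread within ore15-2 was small (mean 7.36 ± 0.858 CPM, against 11.6 ± 0.606 CPM in Col; SD, n = 3 each). The log2 fold change was -0.63 (SE 0.15, edgeR adjusted p = 0.0311), and it stayed past the threshold in 13 of 19 alternatives. Among those that lost it were the fits without Col replicate 1, 2 or 3 (edgeR adjusted p = 0.0902, 0.143 and 0.0923), without ore15-2 replicate 1 (0.113) and from ore15-2 replicate 3 alone (0.0565, with a change of -0.47).

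**Figure D3:**
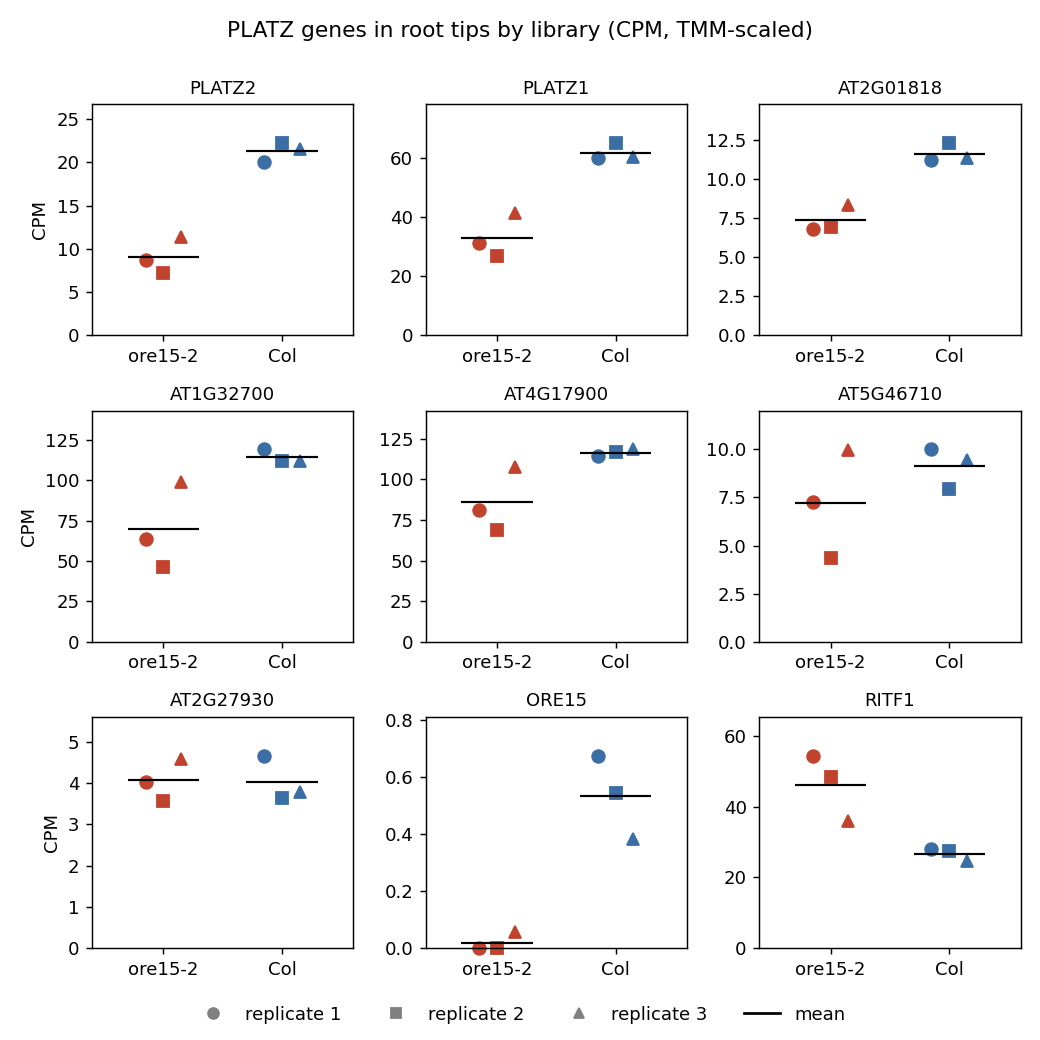
CPM of the 8 measured PLATZ genes and RITF1 in each library, with ore15-2 on the left and Col on the right of each panel, shapes for replicates and a line for the mean. PLATZ2, PLATZ1 and AT2G01818 lie lower in all 3 ore15-2 libraries, AT1G32700, AT4G17900 and AT5G46710 are near Col in replicate 3, and RITF1 lies higher in all 3.

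The most abundant members had lower values mainly in the 2 shallow libraries. AT1G32700 had 64.0, 46.5 and 99.0 CPM in ore15-2 replicates 1 to 3, against 119.4, 111.8 and 112.0 CPM in Col replicates 1 to 3. Replicate 3 of ore15-2 was close to Col, and replicates 1 and 2 were far below. The log2 fold change was -0.69 (SE 0.22, edgeR adjusted p = 0.0861), -1.07 without ore15-2 replicate 3 (edgeR adjusted p = 0.000122), -0.47 without replicate 2 (0.0814) and -0.20 from replicate 3 alone (edgeR adjusted p = 0.098). DESeq2 called this gene (adjusted p = 0.0335), which brought its calls to 5 of 8 members with ORE15, where 4.56% of all genes were called lower. AT4G17900 had 81.3, 68.8 and 107.9 CPM in ore15-2 replicates 1 to 3, against 114.2, 116.7 and 118.5 CPM in Col replicates 1 to 3. Its log2 fold change was -0.43 (SE 0.15, edgeR adjusted p = 0.113), -0.66 without ore15-2 replicate 3 (edgeR adjusted p = 0.000796), -0.29 without replicate 2 (0.156) and -0.10 from replicate 3 alone (0.379).

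AT5G46710 and AT2G27930 were not called. AT5G46710 had 7.27, 4.37 and 9.95 CPM in ore15-2 replicates 1 to 3, against 10.01, 7.95 and 9.46 CPM in Col replicates 1 to 3. The genotypes overlapped, since ore15-2 replicate 3 was above 2 of the Col libraries (log2 fold change -0.25, SE 0.24, edgeR adjusted p = 0.526). The change was -0.65 without ore15-2 replicate 3, which passed the threshold (edgeR adjusted p = 0.0485), -0.04 without replicate 2 (0.928) and 0.14 from replicate 3 alone (0.656). The gene overlaps AT5G46700 on the other strand by 525 bp, and without knowledge of the strand setting their reads may not be separated. AT5G46700 averaged 49.4 CPM in ore15-2 and 45.95 CPM in Col (log2 fold change 0.09, edgeR adjusted p = 0.629). AT2G27930 had 4.04, 3.58 and 4.57 CPM in ore15-2 replicates 1 to 3, against 4.67, 3.63 and 3.77 CPM in Col replicates 1 to 3 (log2 fold change 0.06, SE 0.19, edgeR adjusted p = 0.87). Its values in the 2 genotypes were interleaved, and the change from ore15-2 replicate 3 alone was 0.20 (edgeR adjusted p = 0.612).

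With 1 library left out, 2 members were called lower, PLATZ1 and PLATZ2, without Col replicate 1, 2 or 3 or ore15-2 replicate 1, where 1.59%, 1.15%, 1.43% and 1.36% of all genes were called lower. Without ore15-2 replicate 2, 4 of 8 were, these with ORE15 and AT2G01818, beside 3.95% of all genes. Without ore15-2 replicate 3 the count widened to 7 of 8 members, every one but AT2G27930, and to 35.3% of all genes called, 16.6% as lower. From ore15-2 replicate 3 alone, 3 of 8 members were called lower, ORE15, PLATZ1 and PLATZ2, beside 5.63% of all genes. In each of the 7 tested members ore15-2 replicate 2 had a lower CPM than replicate 3. The part of depth and of the mitochondrial share in these differences was not tested.

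**Figure D4:**
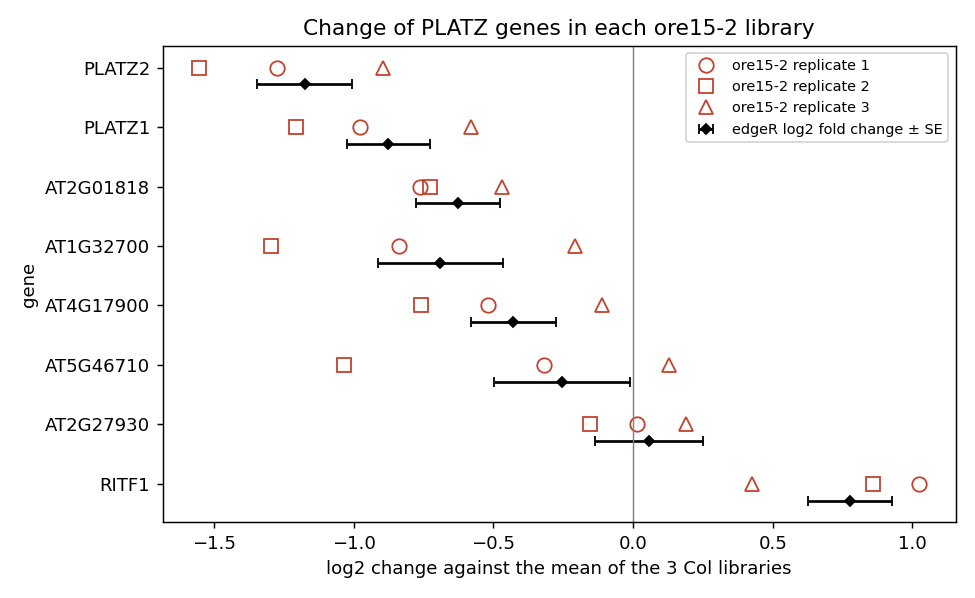
Open symbols give the log2 change of the 7 tested PLATZ genes and RITF1 in each ore15-2 library against the mean of the 3 Col libraries (log2 CPM with a prior count of 2), and black diamonds the edgeR log2 fold change ± SE. PLATZ2 lies at -1.27, -1.55 and -0.89 and PLATZ1 at -0.98, -1.21 and -0.58 in replicates 1 to 3, while AT1G32700, AT4G17900 and AT5G46710 approach 0 or pass it in replicate 3.

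Ratios of family members within a library do not depend on library scaling or depth, and PLATZ1 and PLATZ2 were lower in ore15-2 relative to the abundant AT4G17900. The ratio of PLATZ1 to AT4G17900 in RPKM was 0.354, 0.357 and 0.352 in ore15-2 replicates 1 to 3, against 0.484, 0.513 and 0.468 in Col replicates 1 to 3. The ore15-2 values lay below the Col values and differed among themselves by less than the counting error of the ratio, which was 8.47%, 10.2% and 4.38% in replicates 1 to 3. The ratio of PLATZ2 to AT4G17900 was 0.0995, 0.0964 and 0.0978 in ore15-2 replicates 1 to 3, against 0.162, 0.177 and 0.169 in Col replicates 1 to 3. The ratio of PLATZ2 to PLATZ1 was 0.281, 0.270 and 0.278 in ore15-2 replicates 1 to 3, against 0.336, 0.344 and 0.361 in Col replicates 1 to 3, a log2 difference of -0.33. These 3 ratios were separate between the genotypes, each with an exact two-sided permutation p = 0.10, the smallest that 3 against 3 libraries can give, and an adjusted p = 0.15 over the 21 ratios among the 7 tested members. They were picked out after their values were seen. The ratio of PLATZ1 to AT4G17900 had the smallest relative spread in ore15-2 of all 21 (SD 0.73% of the mean, median 14.3%). Of 11 ratios with PLATZ1 or PLATZ2 on top, 9 were separate. PLATZ1 to the equally abundant AT1G32700 was not, at 0.422, 0.496 and 0.360 in ore15-2 against 0.435, 0.503 and 0.465 in Col (exact permutation p = 0.4). Nor was PLATZ1 to AT5G46710 (exact permutation p = 0.2). Of the 21 ratios 14 were separate, and all 14 were lower in ore15-2, a direction set by placing the member with the lower fold change on top. The 21 ratios reuse the same 7 genes. How often ratios of other gene pairs are separate was not computed, so these counts have no background beside them. Of single tested genes, 16.3% were lower and 18.2% higher in every ore15-2 library than in every Col library. The ratio of AT1G32700 to AT4G17900 was 0.839, 0.720 and 0.978 in ore15-2 replicates 1 to 3, against 1.11, 1.02 and 1.01 in Col replicates 1 to 3, which was also separate (exact permutation p = 0.10), with replicate 3 near to Col.

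**Figure D5:**
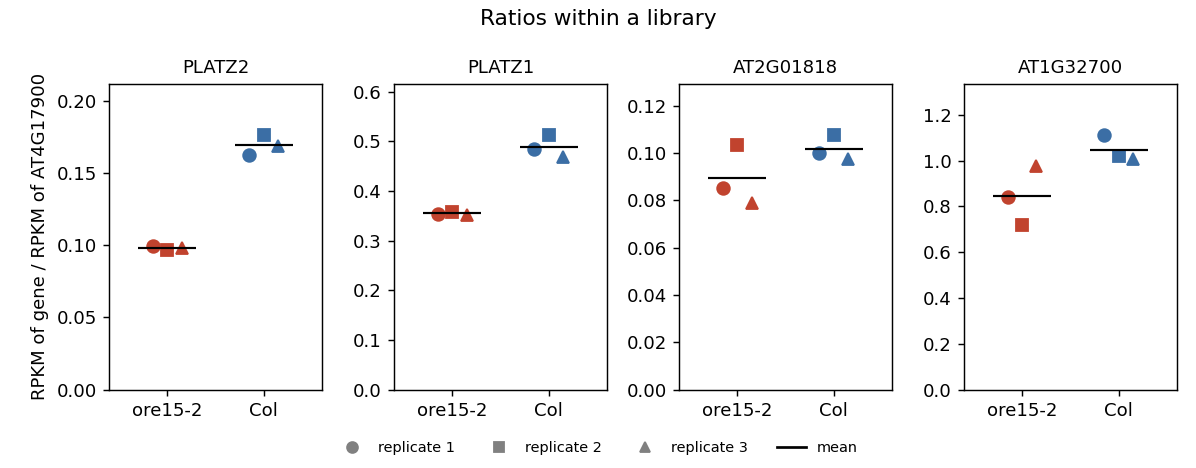
RPKM of 4 PLATZ genes divided by the RPKM of AT4G17900 in the same library, with ore15-2 on the left and Col on the right, shapes for replicates and a line for the mean. The ore15-2 points of PLATZ1 sit between 0.352 and 0.357 and those of PLATZ2 between 0.0964 and 0.0995, below every Col point, while those of AT2G01818 overlap Col.

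RITF1, the PLATZ factor known to carry the RGF peptide signal in the root meristem, moved the other way. It had 54.4, 48.5 and 35.9 CPM in ore15-2 replicates 1 to 3, against 28.1, 27.4 and 24.7 CPM in Col replicates 1 to 3. All ore15-2 values were above all Col values, as in 18.2% of tested genes, and replicate 3 was the lowest of them. The log2 fold change was 0.78 (SE 0.15, edgeR adjusted p = 0.0131), and 0.43 from ore15-2 replicate 3 alone (edgeR adjusted p = 0.0115). It stayed past the threshold in 12 of 19 alternatives and lost it without Col replicate 1, 2 or 3 (edgeR adjusted p = 0.0615, 0.0752 and 0.0768), without ore15-2 replicate 1 (0.0637) and in the 3 fits of RPKM values (limma adjusted p = 0.0602 to 0.065).

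None of the 10 listed genes lies in the segment of chromosome 1 from AT1G24530 to AT1G31020, which was marked beforehand as a raised segment. The lower coordinate of ORE15, a gene on the minus strand, lies 10473 bp beyond the end of this segment. PLATZ1 ends 1.35 Mb before the start of the segment. With the genes of this segment left out, 798 genes were called higher and 547 lower, beside 1211 and 643 in the main fit. Fold changes of the segment's own genes are not given here. AT1G32700 lies 0.755 Mb from ORE15 and PLATZ2 17.7 Mb. The genes beside the members that fell did not pass the test. Beside PLATZ1, AT1G20980 and AT1G21010 had log2 fold changes of -0.09 and -0.16. Beside PLATZ2, AT1G76580 had -0.39 and AT1G76600 had -0.51 (edgeR adjusted p = 0.179 and 0.0548). Beside AT2G01818, AT2G01750 and AT2G01820 had -0.29 and 0.14.

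Few of the measured genes linked with the family in the literature were called, as was so for all tested genes, of which 9.9% were called. With lists this short, the counts below cannot be told apart from that share. Of 12 GRF and GIF genes, the growth regulators and coactivators that act with ORE15 in leaves, 9 were measured. Of these, 1 rose and 0 fell, beside 6.47% and 3.43% of all tested genes, and the median log2 fold change was 0.18. The one that rose was GRF4, at 30.4 ± 4.61 CPM in ore15-2 and 20.8 ± 1.44 CPM in Col (SD, n = 3 each; log2 fold change 0.53, SE 0.13, edgeR adjusted p = 0.0391). Upper-quartile scaling and limma-voom called 0 of these genes and DESeq2 called 2. Of 4 genes of the salt overly sensitive pathway, 0 passed by edgeR, DESeq2 or limma-voom, and 0 had an unadjusted p under 0.05, with a median of -0.23. CBL4 and CBL10, the known targets of PLATZ2, had -0.24 and -0.23 (SE 0.25 and 0.28), and the sodium exchanger gene NHX7, with the smallest p of the list, had -0.35 (SE 0.27, edgeR adjusted p = 0.428).

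Of 8 seed maturation and desiccation genes, 1 was measured, the late embryogenesis gene LEA4-5. It averaged 7.37 ± 1.06 CPM in ore15-2 and 4.54 ± 1.199 CPM in Col (SD, n = 3 each; log2 fold change 0.71, SE 0.22, edgeR adjusted p = 0.0766). Of 8 regulators of auxin, cytokinin and the root meristem, 0 passed by edgeR, DESeq2 or limma-voom and 2 had an unadjusted p under 0.05. Among all tested genes edgeR called 9.9%, and at an unadjusted p under 0.05, 10.8% were lower and 16.1% higher. The median log2 fold change of the 8 regulators was -0.10. The auxin efflux carrier gene PIN7 had the smallest p of these regulators, with 25.3 ± 4.92 CPM in ore15-2 and 32.1 ± 1.68 CPM in Col (SD, n = 3 each; log2 fold change -0.32, SE 0.14, edgeR adjusted p = 0.183).

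Some markers of cell types in the tip were also called by edgeR, where 6.47% of all tested genes were called higher and 3.43% lower. Of 5 root hair markers 3 rose, and their summed level was 485.2 to 873.6 CPM in ore15-2 and 301.3 to 345.2 CPM in Col. Of 4 phloem markers 2 fell, SUC2 and SEOR1, and the sum was 27.8 to 45.1 CPM in ore15-2 and 56.4 to 71.8 CPM in Col. Of 3 endodermis markers 1 rose, CASP4, with sums of 321.8 to 459.8 CPM in ore15-2 and 257.4 to 322.8 CPM in Col. Of 4 markers of green tissue 1 fell, PSAD1, with sums of 209.1 to 362.4 CPM in ore15-2 and 248.0 to 295.3 CPM in Col. The 7 measured meristem markers, with sums of 128.2 to 191.8 CPM in ore15-2 and 148.2 to 163.8 CPM in Col, and the 3 root cap and 4 xylem markers had 0 calls by edgeR, DESeq2 or limma-voom, with 1 gene of each list at an unadjusted p under 0.05. Root cap sums were 33.0 to 41.5 CPM in ore15-2 and 25.3 to 31.0 CPM in Col, and xylem sums 124.9 to 155.3 CPM in ore15-2 and 141.5 to 165.6 CPM in Col. No measured marker was at 0. The part of cell composition in the falls of PLATZ1, PLATZ2 and AT2G01818 was not tested.

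The genes whose pattern over the 6 libraries was most like that of each fallen member were found by Pearson's r of log2 CPM among 15395 genes, as a description. The points share their library and fall into the 2 genotypes, and many genes come close. For PLATZ1, 593 genes had r over 0.95, led by AT1G74910 (r = 0.999), AT5G03180 and UGE3, an enzyme of galactose metabolism. For PLATZ2 there were 524, led by AT1G52200 (r = 0.9998), PP2-A13 and PPCK2, a kinase of phosphoenolpyruvate carboxylase. For AT2G01818 there were 415, led by AT1G56220 (r = 0.999), NUDT8 and SPPL2. In ore15-2, AT1G52200 averaged 75.1 CPM, against 152.6 CPM in Col, and PP2-A13 averaged 38.1 CPM in ore15-2, against 91.4 CPM in Col. The lower ore15-2 level of the genes named follows from their choice by r. Their log2 fold changes ran from -2.46 for NUDT8 to -0.26 for SPPL2. SPPL2 and AT1G74910 (log2 fold change -0.345) were not called (edgeR adjusted p = 0.0997 and 0.0571).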

How the data were processed

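The deposited table of read counts per gene covers 18734 genes in 6 libraries, 3 of ore15-2 and 3 of Col. The deposited RPKM table covers 18340 of them. The submitters' processing notes name FastQC, cutadapt, TopHat2, HTSeq and the build TAIR10. The sources used here do not give the strand setting or annotation release. Dividing counts by RPKM gave the authors' gene lengths, which equal the TAIR10.1 coding length in 7 of the 8 measured members and are 570 against 579 bases in AT2G27930. The authors' RPKM values thus restate the counts.

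The main test was that of edgeR 4.0.16 under R 4.3.3 (quasi-likelihood F-test, TMM scaling, filterByExpr, genotype as the only term), with Benjamini-Hochberg adjustment over 18726 genes and a threshold of 0.05. SE is the absolute log2 fold change divided by the square root of F. Alternatives used DESeq2 1.42.0, upper-quartile or RLE scaling, limma 3.58.1 with voom or on log2 RPKM with a pseudocount of 1 or 0.1 (mean RPKM of at least 1, or no filter), no filter or a mean of 5 CPM, a replicate block, organelle genes or the chromosome 1 segment left out, and libraries left out. The code was tested on simulated data. Coding sequences were aligned with Biopython 1.88 (longest model per gene).

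The members, lists and alternatives were chosen with earlier results of these data known. Named are all members, RITF1, up to 4 called genes per linked list or otherwise the one with the smallest p, the 3 genes most like each called member (mean of at least 5 CPM), overlapping genes and nearest tested neighbours. Intervals and floors of 3 counts cover counting error only.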

Additional observations from a re-analysis of the deposited data

How the results depend on the processing

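PLATZ1 and PLATZ2 kept direction and call in all 19 alternatives. The count of members called, 3 in the fit reported, was 5 with DESeq2 and ran from 2 to 7 with 1 library left out, the 7 without ore15-2 replicate 3. It stayed at 3 with a replicate block, which called AT1G32700 in place of AT2G01818 (edgeR adjusted p = 0.0308 and 0.0682). Deviations of same-numbered libraries from their genotype means had r = 0.0623, 0.0832 and -0.203. Those of differently numbered libraries ran from -0.275 to 0.238. With so few libraries these values cannot tell whether the numbers mark a shared batch. The count over all genes, 1854, was 1641 with the replicate block, 1110 on log2(RPKM + 1), 1037 on log2(RPKM + 0.1), 1133 on log2(RPKM + 1) with no filter, 3109 with ore15-2 replicates 1 and 2 both left out, and 634 to 6612 with 1 library left out. The pooled ORE15 level, 6.57% of Col, was 0 to 8.38% with 1 library left out, the 0 without ore15-2 replicate 3, whose 1 count was the sole one in ore15-2. The direction of AT2G27930, which was not called, turned to -0.18 on log2(RPKM + 1), with or without the filter, to -0.21 on log2(RPKM + 0.1), and to -0.05, -0.02 and -0.10 without Col replicate 2, Col replicate 3 and ore15-2 replicate 3 (range -0.10 to 0.15 with 1 library left out). AT5G46710 turned to 0.14 with ore15-2 replicates 1 and 2 both left out. The cause of these changes was not tested. The median gene lay 0.21 and 0.23 lower on the RPKM scales. Depth limits ORE15 most.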
